A study of Mus musculus with 4 samples.

Results

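The 10 genes Dppa2, Dppa3, Dppa4, Dppa5a, Tdh, Utf1, Fbxo15, Tcl1, Pecam1 and Alpl mark naive mouse embryonic stem cells without belonging to the core transcription factors. They were taken by symbol from the 24428 genes counted, and all 10 were found and passed the filter on low counts, which 14479 genes passed. The data were gene counts from poly(A) RNA-seq of mouse embryonic stem cells (129SvEv strain, passage 15 to 20). The tamoxifen group (n = 2 libraries) was given 0.8 uM 4-hydroxytamoxifen over 48 h, and the ethanol group (n = 2) was given ethanol for the same time; both were collected at 72 h. Both groups carried floxed Smarca4 alleles and CreER, a Cre recombinase that tamoxifen activates, and both were grown in 15% serum with LIF. Smarca4 encodes BRG1, the ATPase of the BAF chromatin remodeling complexes. The labels give neither the promoter that drives CreER nor whether the line is 1 clone, and a tamoxifen-treated culture without loxP sites was not analysed here, so deletion, drug and active Cre cannot be told apart. The labels do not say whether the replicates came from separate cultures, and the p-values therefore cover only the spread among these 4 libraries, which may be technical.

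These genes are used as readouts of the stem cell state. Dppa2 and Dppa4 are partner SAP-domain chromatin proteins that bind CpG-rich promoters and activate genes of the early embryo, and Dppa3 (Stella) keeps the methylation factor UHRF1 off chromatin. Utf1 and Fbxo15 are known targets of the OCT4 and SOX2 proteins, Tdh supplies glycine and acetyl-CoA from threonine, Tcl1 binds and activates AKT kinases, and Pecam1 and Alpl encode surface proteins by which stem cell colonies are stained.

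Reads counted in genes numbered 13458463 and 17191445 with tamoxifen and 16130823 and 27086142 with ethanol. Smarca4 averaged 68.6 ± 0.152 CPM with tamoxifen and 369 ± 56.9 CPM with ethanol (SD, n = 2 each), a log2 fold change of -2.43 ± 0.17 (SE), as its label implies; CPM are counts scaled to library size with TMM factors. The stem cell factors Pou5f1, Sox2 and Nanog averaged 342, 408 and 639 CPM with tamoxifen and 302, 442 and 496 CPM with ethanol, so the labelled cell type had its defining transcripts in both groups. Across all genes the fold change followed the GC content of the transcript, with a Spearman correlation of 0.645 over 14394 genes, which are not independent replicates. The fold change of each marker gene is therefore also given from a fit in which the GC trend of each library was removed; that of Smarca4 was -2.80.

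Of the 10 marker genes, Pecam1 and Tcl1 fell with tamoxifen, Dppa5a and Alpl rose, and 6 did not pass the test (edgeR quasi-likelihood test, adjusted p under 0.05 over all genes tested). The 4 called genes are 40% of the members, against 44.5% of all genes tested, so a marker gene was called about as often as any gene. Higher calls took 21.5% and lower calls 22.9% of all genes. For 7 of the 10 members the libraries of the groups did not overlap (5 higher and 2 lower with tamoxifen), against 74.0% of all genes tested, 37.0% higher and 37.0% lower. The median log2 fold change was 0.22 over the members and -0.01 over all genes tested. After removal of the GC trend 3 members were higher and 3 lower, which is 60% of them, against 20.1% of all genes called in either direction, 10.1% higher and 9.98% lower; the members' median was 0.21. In bulk RNA, fewer cells that express a gene and less of its RNA per cell cannot be told apart. Sums over the members were 2873 and 2817 CPM in the tamoxifen libraries, against 2392 and 2243 CPM in the ethanol libraries, and Dppa5a alone made up about 1449 and 1002 of the mean sums.

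**Figure D1:**
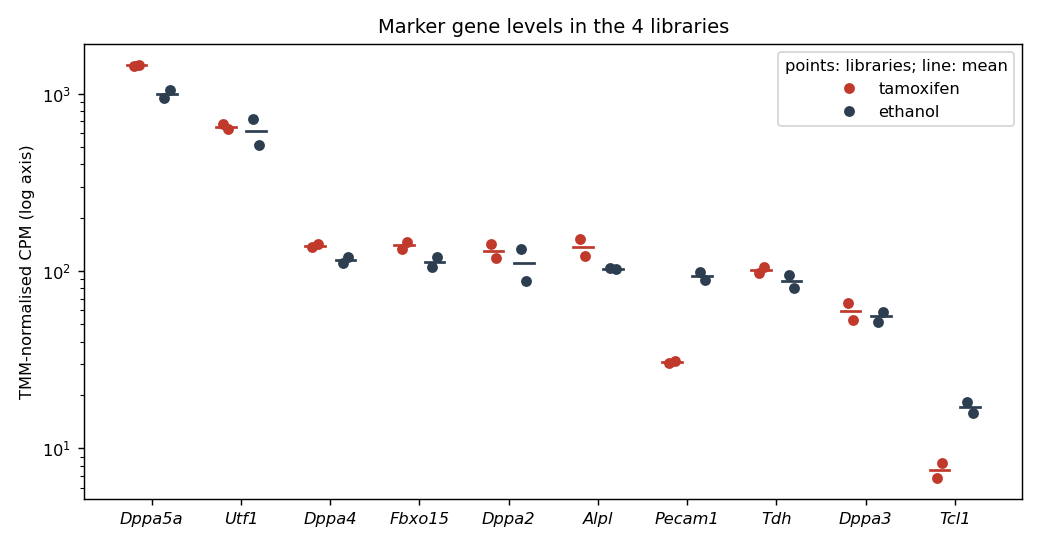
TMM-normalised CPM (log axis) of each marker gene in the 2 tamoxifen libraries (red) and the 2 ethanol libraries (dark), with the group mean as a line. Pecam1 and Tcl1 lie lower in both tamoxifen libraries, at 30.4 and 31.3 CPM and at 6.79 and 8.24 CPM, while Dppa2, Dppa3 and Utf1 overlap between the groups.

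Pecam1 encodes PECAM-1 (CD31), an adhesion molecule of the immunoglobulin superfamily found on endothelium and on inner cell mass and naive stem cells. Its counts were 430 and 559 in the tamoxifen libraries and 1515 and 2307 in the ethanol libraries. After scaling it had 30.4 and 31.3 CPM in the tamoxifen libraries, against 98.7 and 88.6 CPM in the ethanol libraries. Both tamoxifen values were lower than either ethanol value, and the replicates of a group lay close together. Pecam1 had a log2 fold change of -1.60 ± 0.15 (SE; 95% interval -1.92 to -1.28; edgeR quasi-likelihood test, adjusted p = 4.55e-05), which left 33.0% of the ethanol level. Its transcript has a GC content of 50.2%, near the middle of all genes tested, and its GC-corrected value was -1.57 ± 0.14 (edgeR, adjusted p = 2.16e-05). It lay at the 1.85th percentile of all log2 fold changes. A decrease of at least 2-fold was called for 6.70% of all genes tested.

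Because Pecam1 is also an endothelial gene, 12 other endothelial markers were examined. Their summed level was 39.0 and 39.9 CPM in the tamoxifen libraries and 36.3 and 33.8 CPM in the ethanol libraries. This sum is not per length of transcript (Flt1 has 6895 bases and Pecam1 3441), so it was not ranked against the level of Pecam1. Flt1 made up most of the sum, at 27.3 and 25.8 CPM with tamoxifen and 22.1 and 19.3 CPM with ethanol. Of the 8 markers that passed the filter, none was called higher and Tek, a receptor of angiopoietins, fell by 0.95 on the log2 scale (-0.72 with GC correction). Next in order of adjusted p, Esam (0.92 ± 0.37), Flt1 (0.36 ± 0.16) and Sox18 (0.57 ± 0.27) were positive but did not pass. With GC correction they had 0.70, 0.38 and -0.10. Cdh5 and Kdr, named after their values were seen, were near 0, at 0.702 and 0.669 CPM with tamoxifen and 0.808 and 0.595 CPM with ethanol. The median log2 fold change of the endothelial list was 0.03.

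Tcl1 encodes a small coactivator of AKT that promotes stem cell proliferation. It had the fewest reads of the members, with counts of 96 and 147 in the tamoxifen libraries and 281 and 412 in the ethanol libraries. These correspond to 6.79 and 8.24 CPM with tamoxifen, against 18.3 and 15.8 CPM with ethanol. Both tamoxifen values were well below both ethanol values. Tcl1 had a log2 fold change of -1.17 ± 0.18 (SE; 95% interval -1.57 to -0.77; edgeR quasi-likelihood test, adjusted p = 0.000545), which left 44.4% of the ethanol level, and -1.27 ± 0.18 with GC correction (edgeR, adjusted p = 0.000431). Its neighbours and paralogs on chromosome 12, Tcl1b1 to Tcl1b5, had at most 1 read in any library. The promoter of the falling gene is shown from the RefSeq start (GRCm38.p6, chr12:105222738-105222987, minus strand, 250 bases upstream, 5′ to 3′), with matches to the searched motifs in capitals.
Tcl1: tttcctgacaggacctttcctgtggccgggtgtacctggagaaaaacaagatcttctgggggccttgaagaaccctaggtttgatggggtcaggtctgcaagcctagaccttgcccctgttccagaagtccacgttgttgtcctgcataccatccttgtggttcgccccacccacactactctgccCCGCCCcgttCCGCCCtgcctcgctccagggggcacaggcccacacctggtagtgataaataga
Both matches are GC boxes (GGGCGG, on the reverse strand), 64 and 54 bases before the start. Of all 32841 promoters of that length, 32.7% hold this motif on either strand. The window has a GC content of 57.6%, against a median of 52.4% over all promoters. No match was found to the octamer ATGCAAAT (in 1.60% of promoters), the estrogen-related receptor site AAGGTCA (4.08%), the STAT site TTCNNNGAA (7.02%), CCAAT (33.9%) or TATAAA (12.4%); both strands were searched.

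AKT kinase genes were higher with tamoxifen. Of 19 genes of the TCL1 and AKT pathway, 14 passed the filter, 4 rose and 3 fell, with a median log2 fold change of -0.25. Akt1 rose by 1.03 ± 0.15 and Akt2 by 0.79 ± 0.15 on the log2 scale (SE; edgeR, adjusted p = 0.000372 and 0.00149). The corrected values were 0.43 and 0.47. With GC correction 5 of these genes rose and none fell, and the median was 0.12.

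**Figure D2:**
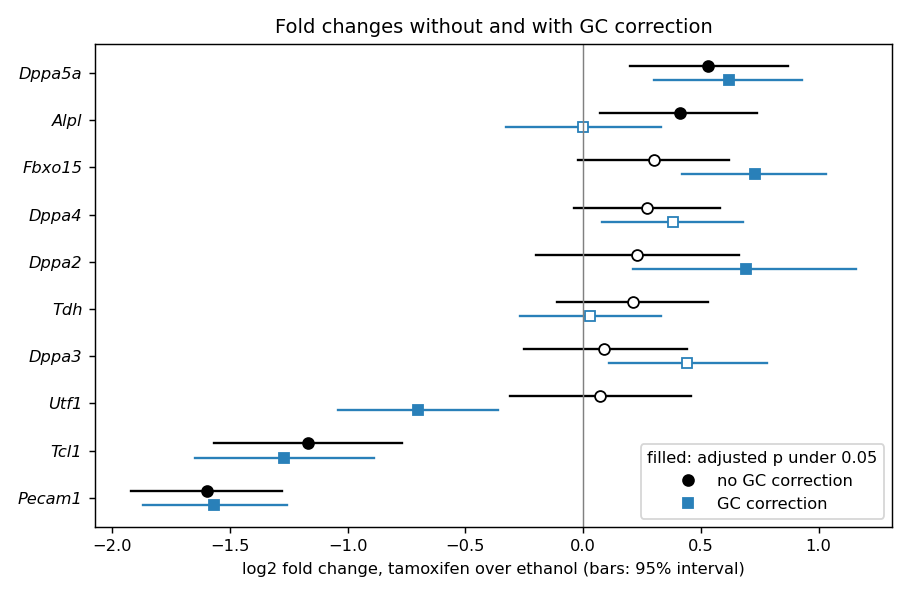
Log2 fold change of each marker gene, tamoxifen over ethanol, with 95% intervals, without GC correction (black circles) and with it (blue squares); filled symbols have an adjusted p under 0.05. Pecam1 and Tcl1 stay at about the same value in both fits, Utf1 moves to -0.70, and Alpl moves to 0.00.

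Dppa5a (Esg1) encodes a KH-domain RNA-binding protein that is among the most abundant transcripts of naive cells. Here it stood at the 99.7th percentile of mean CPM. Its counts were 20329 and 26048 with tamoxifen and 14587 and 27447 with ethanol, which scale to 1438 and 1460 CPM in the tamoxifen libraries, against 950.4 and 1054 CPM in the ethanol libraries. Both tamoxifen libraries were higher than both ethanol libraries. The log2 fold change was 0.53 ± 0.15 (SE; 95% interval 0.20 to 0.87; edgeR quasi-likelihood test, adjusted p = 0.0146), or 1.45-fold, and 0.62 ± 0.15 with GC correction (edgeR, adjusted p = 0.0104). The call ended without tamoxifen replicate 1 (adjusted p = 0.104) and without tamoxifen replicate 2 (adjusted p = 0.122; edgeR), at nearly the same fold change (0.54 and 0.52). RefSeq lists the pseudogenes Dppa5b and Dppa5c beside it, and reads that fit several copies could have been split or dropped, so the count is uncertain.

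Dppa2 and Dppa4, the partner genes, lie next to each other on chromosome 16 on the same strand. Dppa4 had 136.1 and 141.6 CPM in the tamoxifen libraries, against 110.7 and 119.8 CPM in the ethanol libraries. Both tamoxifen values were above both ethanol values, but the log2 fold change of 0.27 ± 0.14 (SE; 95% interval -0.04 to 0.58) did not pass the test (edgeR, adjusted p = 0.142). Dppa2 had 141.3 and 118.5 CPM with tamoxifen and 134.1 and 87.4 CPM with ethanol. Its groups overlapped, and its 2 ethanol libraries differed by 0.62 on the log2 scale, more than 90.1% of all genes tested. The log2 fold change of Dppa2 was 0.23 ± 0.20 (95% interval -0.20 to 0.66; edgeR, adjusted p = 0.360).

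The value of Dppa2 depended on both ethanol libraries. Without ethanol replicate 1 the log2 fold change was 0.58 and was called (edgeR, adjusted p = 0.00276), and without ethanol replicate 2 it was -0.04. Dppa2 has a transcript of low GC content (43.6%), and with GC correction it was called higher at 0.69 ± 0.21 (edgeR, adjusted p = 0.0465). Leaving out tamoxifen replicate 1 (0.53), tamoxifen replicate 2 (0.83) or ethanol replicate 2 (0.38) ended that call. Dppa4 had 0.38 ± 0.14 with GC correction (edgeR, adjusted p = 0.0703). The log2 ratio of Dppa2 to Dppa4 counts, which is free of library scaling, was 0.05 and -0.26 in the tamoxifen libraries and 0.28 and -0.45 in the ethanol libraries. The ratio thus spanned more between the ethanol replicates than between the groups.

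DPPA2 and DPPA4 activate genes of the 2-cell embryo, such as Dux and the Zscan4 cluster. Of 24 such genes listed, 19 were in the files and 11 passed the filter, of which 6 rose and none fell, with a median log2 fold change of 1.52. Zscan4c had 5.08 CPM with tamoxifen and 1.29 CPM with ethanol and rose by 1.99 ± 0.26 on the log2 scale (SE; edgeR, adjusted p = 0.000217; 2.53 with GC correction). Usp17le, a ubiquitin protease gene, rose by 2.80 ± 0.41 from counts of 36 and 35 with tamoxifen and 6 and 7 with ethanol, or 2.77 with GC correction. These genes have near-identical copies, so their counts are uncertain, and the copies are not independent. Dux, named after its values were seen, had counts of 13 and 21 with tamoxifen and 14 and 1 with ethanol and did not pass (edgeR, adjusted p = 0.215). Apart from Usp17le, the genes that rose were Zscan4 copies. The list's summed level was 58.0 and 56.7 CPM with tamoxifen and 37.9 and 34.8 CPM with ethanol. Mael, named after its values were seen, was its largest part, at 27.5 and 20.9 CPM with tamoxifen and 20.3 and 18.5 CPM with ethanol. It was called only with GC correction (0.32 without and 0.69 with it), so the sum says little about the other genes.

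Dppa3 lies between Gdf3 and Nanog on chromosome 6. It had 65.7 and 52.8 CPM in the tamoxifen libraries, against 51.9 and 59.1 CPM in the ethanol libraries, and the groups overlapped. The log2 fold change was 0.09 ± 0.16 (SE; 95% interval -0.25 to 0.44; edgeR, adjusted p = 0.656) and 0.44 ± 0.16 with GC correction (edgeR, adjusted p = 0.0595). RefSeq lists a pseudogene of it on chromosome X. Gdf3, a TGF-beta family ligand named here as the adjacent gene after its values were seen, had -0.13 ± 0.15, and Nanog had 0.37 ± 0.17 (edgeR, adjusted p = 0.491 and 0.0907); Nanog was called higher with GC correction (0.68).

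A list of genes linked to DPPA3 or to DNA methylation was also examined. Of its 11 genes 1 rose and 2 fell, with a median log2 fold change of -0.21, while 44.5% of all genes tested were called. The dioxygenase gene Tet3 rose by 1.32 ± 0.15 on the log2 scale, whereas Tet1 had -1.19 ± 0.17 and the methyltransferase gene Dnmt3a -0.81 ± 0.16 (SE; edgeR, adjusted p = 0.000123, 0.000326 and 0.00200). With GC correction Tet3 had 1.12, Tet1 -0.74 and Dnmt3a -0.90, all called, but Tet1 lost that call without tamoxifen replicate 2 (-0.58). Uhrf1 and Dnmt1, named after their values were seen, did not pass (0.27 ± 0.18 and 0.21 ± 0.15; edgeR, adjusted p = 0.230 and 0.272; 0.06 and -0.02 with GC correction).

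**Figure D3:**
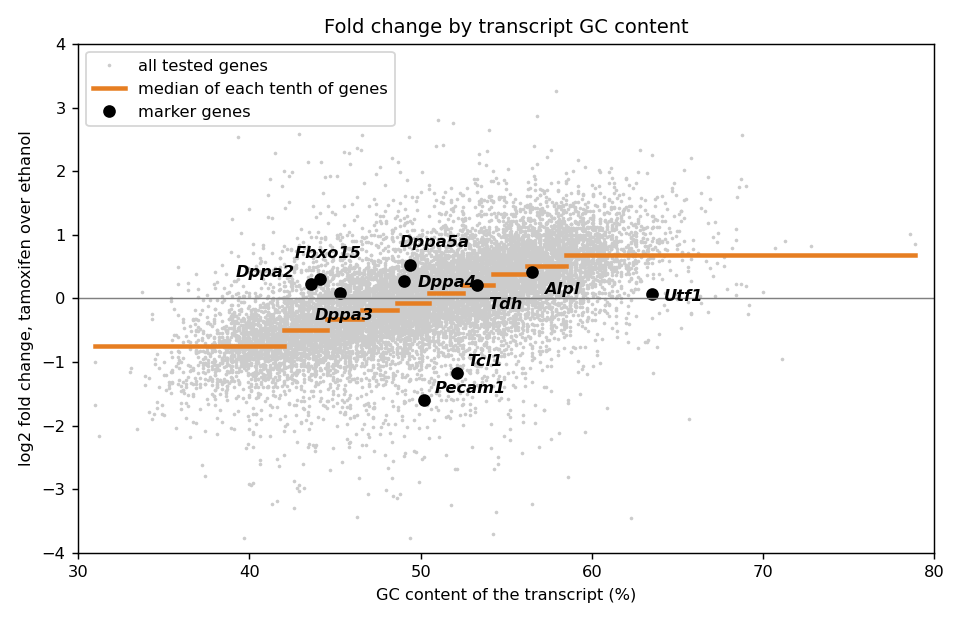
Log2 fold change against the GC content of the transcript (%) for all tested genes with a GC value (grey), with the median of genes in bins of equal size (orange) and the marker genes (black); 4 genes lie outside the range shown. Dppa2, Fbxo15 and Dppa3 lie above the median of genes of like GC content, Utf1 lies below it at 63.5% GC, and Tdh and Alpl lie close to it.

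Utf1, a chromatin-bound transcription cofactor of stem cells, was the member most affected by GC content. Its counts were 9503 and 11268 with tamoxifen and 11107 and 13407 with ethanol. It had 672.4 and 631.5 CPM in the tamoxifen libraries, against 723.6 and 514.9 CPM in the ethanol libraries. The tamoxifen values lay between the ethanol values, and the log2 fold change was 0.07 ± 0.18 (SE; 95% interval -0.31 to 0.46; edgeR, adjusted p = 0.759). Its transcript has a GC content of 63.5%, at the 99.0th percentile. The 1440 genes with the highest GC content (58.5 to 78.9%) had a median log2 fold change of 0.69. With GC correction Utf1 was called lower at -0.70 ± 0.16 (edgeR, adjusted p = 0.00739), a call that ended without tamoxifen replicate 2 (-0.63; edgeR, adjusted p = 0.126). The promoter (GRCm38.p6, chr7:139943606-139943855, plus strand, 250 bases upstream of the RefSeq start) is shown because the value of Utf1 changed sign with GC correction, with motif matches in capitals.
Utf1: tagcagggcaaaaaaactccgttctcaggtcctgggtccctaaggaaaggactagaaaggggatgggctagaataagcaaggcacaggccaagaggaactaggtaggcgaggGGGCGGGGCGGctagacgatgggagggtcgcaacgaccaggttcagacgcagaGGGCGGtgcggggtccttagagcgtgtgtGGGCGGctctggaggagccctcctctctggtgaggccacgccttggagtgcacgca
The capitals are 4 GC boxes (GGGCGG), starting 138, 133, 85 and 56 bases before the start, of which the first pair overlap. The window has a GC content of 61.6% and 14 CpG sites, against medians of 52.4% and 6 over all promoters. None of the other motifs searched was matched.

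Fbxo15 encodes the F-box protein whose gene served as a reporter in early reprogramming work, and lies on chromosome 18. It had 132.6 and 146.4 CPM in the tamoxifen libraries, against 105.9 and 120.3 CPM in the ethanol libraries. The groups did not overlap, but the log2 fold change of 0.30 ± 0.15 (SE; 95% interval -0.02 to 0.62) did not pass (edgeR, adjusted p = 0.113). It passed without ethanol replicate 2 (0.40; edgeR, adjusted p = 0.0471) and with total counts as scaling (0.43). Its transcript is poor in G and C (44.1%), and with GC correction it was called higher at 0.73 ± 0.14 (edgeR, adjusted p = 0.00336). That call ended without tamoxifen replicate 2 (0.68; edgeR, adjusted p = 0.0659). F-box proteins work in SCF ubiquitin ligases, and of 8 genes of these complexes 1 rose and 2 fell. Among them Cul7, a scaffold gene, rose by 1.04 ± 0.14, whereas the adaptor gene Skp1a had -0.90 ± 0.16 (SE, edgeR, adjusted p = 0.000255 and 0.00112). With GC correction these were 0.48 and -0.52. Cul1, another scaffold gene, named after its values were seen, had -0.18 ± 0.17 and did not pass (edgeR, adjusted p = 0.393). It had 0.24 with GC correction, also not called.

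Tdh encodes mitochondrial threonine dehydrogenase, on which mouse stem cells rely for growth. It had 97.1 and 104.9 CPM in the tamoxifen libraries, against 94.6 and 80.2 CPM in the ethanol libraries. The groups were separated by a small gap, and the log2 fold change was 0.21 ± 0.15 (SE; 95% interval -0.11 to 0.53; edgeR, adjusted p = 0.264), or 0.03 ± 0.14 with GC correction. Of 17 genes of glycine and one-carbon metabolism, 1 rose and 6 fell, with a median log2 fold change of -0.05. The gene that rose was Gcat, the enzyme that splits the product of TDH into glycine and acetyl-CoA, at 0.72 ± 0.16 (edgeR, adjusted p = 0.00414); it was not called with GC correction (0.30). Psat1, of serine synthesis, had the smallest adjusted p of the list, at -1.27 ± 0.16 (edgeR, adjusted p = 0.000168; -1.12 with GC correction).

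Alpl encodes tissue-nonspecific alkaline phosphatase, the enzyme behind the classic stain of stem cell colonies. Its counts were 2154 and 2173 with tamoxifen and 1590 and 2684 with ethanol, or 152.4 and 121.8 CPM in the tamoxifen libraries, against 103.6 and 103.1 CPM in the ethanol libraries. Both tamoxifen values were higher, by unequal amounts. The log2 fold change was 0.41 ± 0.15 (SE; 95% interval 0.07 to 0.74; adjusted p = 0.0479 by edgeR), just inside the threshold. The call ended with GC correction (0.00 ± 0.15; edgeR, adjusted p = 0.996), with DESeq2 (0.40), with limma voom (0.40), with no filter on low counts (0.40), without tamoxifen replicate 1 (0.23) and without tamoxifen replicate 2 (0.56). The other alkaline phosphatase genes found in the files, Alppl2, Akp3 and Alpi, had at most 2 reads in any library. Alpl has more than 1 RefSeq start, and both promoters are shown because they differ in GC content (GRCm38.p6, minus strand, 250 bases each, at chr4:137796385-137796634 and chr4:137766476-137766725, the first farther upstream). Motif matches are in capitals.
Alpl upstream start: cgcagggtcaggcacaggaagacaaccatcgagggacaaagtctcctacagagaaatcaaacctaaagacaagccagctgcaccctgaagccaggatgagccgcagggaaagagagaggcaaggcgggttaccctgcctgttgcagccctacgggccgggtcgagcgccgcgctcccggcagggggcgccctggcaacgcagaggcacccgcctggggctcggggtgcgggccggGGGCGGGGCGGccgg
Alpl downstream start: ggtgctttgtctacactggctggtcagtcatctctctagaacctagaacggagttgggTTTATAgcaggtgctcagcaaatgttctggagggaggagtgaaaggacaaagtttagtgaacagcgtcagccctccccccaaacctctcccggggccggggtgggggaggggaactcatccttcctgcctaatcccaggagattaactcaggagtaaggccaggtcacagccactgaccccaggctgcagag
The upstream window holds 2 overlapping GC boxes (GGGCGG), 20 CpG sites and a GC content of 68.4%. The downstream window holds 4 CpG sites, a GC content of 56.0% and a TATAAA match on the reverse strand, 192 bases before the start. The gene-level counts do not show which start was used.

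Alpl is also a gene of bone-forming cells and of some fibroblasts. Of 9 osteoblast markers 4 passed the filter, of which 2 rose (Col1a1 and Sp7) and 1 fell (Spp1). Col1a1 rose by 1.46 ± 0.20 and Sp7 by 1.89 ± 0.48 on the log2 scale (SE, edgeR, adjusted p = 0.000308 and 0.00869). With GC correction they had 0.92 and 1.63. Sp7 had counts of 38 and 30 with tamoxifen and 15 and 8 with ethanol. Runx2 had 0.35 ± 0.26 and did not pass (edgeR, adjusted p = 0.287). Ibsp and Dmp1, named after their values were seen, had no read. The osteoblast list summed to 477.1 and 502.1 CPM with tamoxifen and 516.1 and 464.5 CPM with ethanol. Spp1, the gene that fell, made up most of that sum, so the sum says little about the other markers. It had 288.8 and 314.8 CPM with tamoxifen and 431 and 409.6 CPM with ethanol, and was not called with GC correction (0.00). Col1a1 had 181.8 and 181.7 CPM with tamoxifen and 80.7 and 52 CPM with ethanol. Of 24 fibroblast markers 15 of the 22 that passed rose and none fell, also with GC correction. The list's summed level was 3834 and 3906 CPM with tamoxifen against 3053 and 2650 CPM with ethanol. Fn1 and Sparc, named after their values were seen, made up most of that sum. Neither was called with or without GC correction, so this sum too says little about the other markers. The collagen gene Col6a1 rose by 1.88 ± 0.20 and smooth muscle actin, Acta2, by 1.25 ± 0.15 on the log2 scale (SE; edgeR, adjusted p = 9.08e-05 and 0.000157), and with GC correction they had 1.46 and 1.33. The part of these cells in the value of Alpl or of any other member was not tested.

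**Figure D4:**
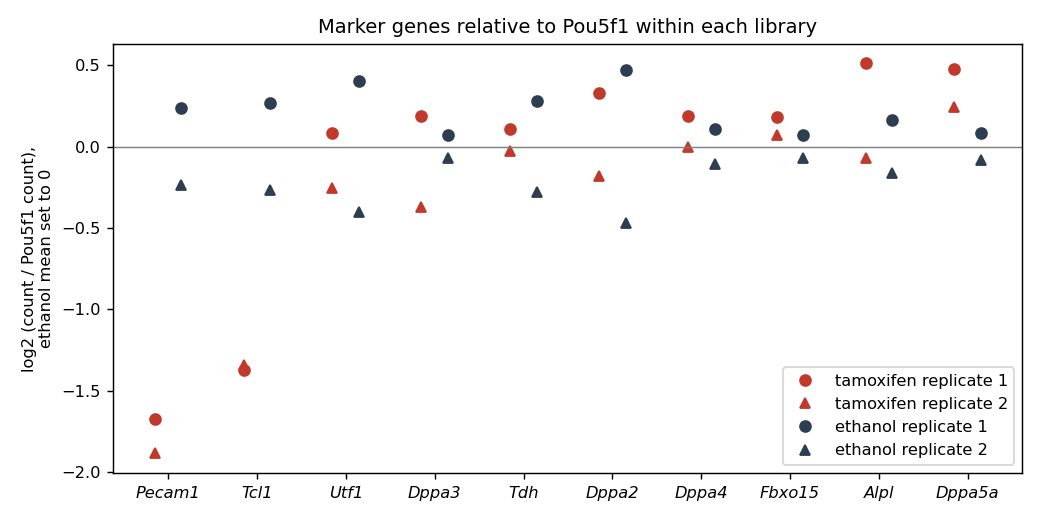
Log2 ratio of each marker gene's count to that of Pou5f1 in the same library, with the ethanol mean set to 0, for tamoxifen (red) and ethanol (dark), circles for replicate 1 and triangles for replicate 2. Pecam1 and Tcl1 lie lower in both tamoxifen libraries, with mean differences of -1.78 and -1.37.

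Ratios within a library do not depend on how libraries are scaled, so each member was also set against Pou5f1, which encodes OCT4. These ratios were not GC-corrected and still carry the GC trend. The Pou5f1 transcript has a GC content of 57.6%, against 43.6% for Dppa2 and 44.1% for Fbxo15. Separation or overlap of a ratio therefore also depends on the GC content of the 2 genes. Pou5f1 itself had a log2 fold change of 0.18 ± 0.17 (SE; edgeR, adjusted p = 0.411) and -0.31 with GC correction, not called. The log2 ratio of Pecam1 to Pou5f1 was -3.36 and -3.57 with tamoxifen, against -1.45 and -1.92 with ethanol. That of Tcl1 was -5.52 and -5.49 with tamoxifen, against -3.88 and -4.41 with ethanol. Dppa5a stood at 2.21 and 1.98 with tamoxifen, against 1.82 and 1.65 with ethanol. Fbxo15 also separated, by a mean of 0.12, and the other 6 members overlapped between the groups. The fall of Tcl1 was the smaller one, and the log2 ratio of Tcl1 to Pecam1 was -2.16 and -1.93 with tamoxifen and -2.43 and -2.49 with ethanol.

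Levels can be compared between genes only per length of transcript. Per kilobase of the longest coding transcript, Dppa5a stood first with 2341 ± 24.4 CPM with tamoxifen and 1619 ± 119 CPM with ethanol, and Utf1 followed with 531 ± 23.6 and 505 ± 120 CPM (SD, n = 2 each). Dppa4, Fbxo15, Dppa3, Alpl, Tdh and Dppa2 formed a middle group, from 93.9 to 53.1 CPM per kilobase with tamoxifen and from 77.9 to 41.0 with ethanol. In this group, Fbxo15 and Dppa3 had overlapping ranges of mean ± SD with tamoxifen and with ethanol, and so did Tdh, Dppa2 and Alpl. Pecam1 and Tcl1 stood last, with 8.97 ± 0.185 and 5.38 ± 0.731 CPM per kilobase with tamoxifen and 27.2 ± 2.08 and 12.2 ± 1.26 with ethanol. With the union of all exons as length, the first pair and the last pair kept their places, while the middle group changed order: Fbxo15, for example, had 41.5 CPM per kilobase with tamoxifen and 33.7 with ethanol.

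**Figure D5:**
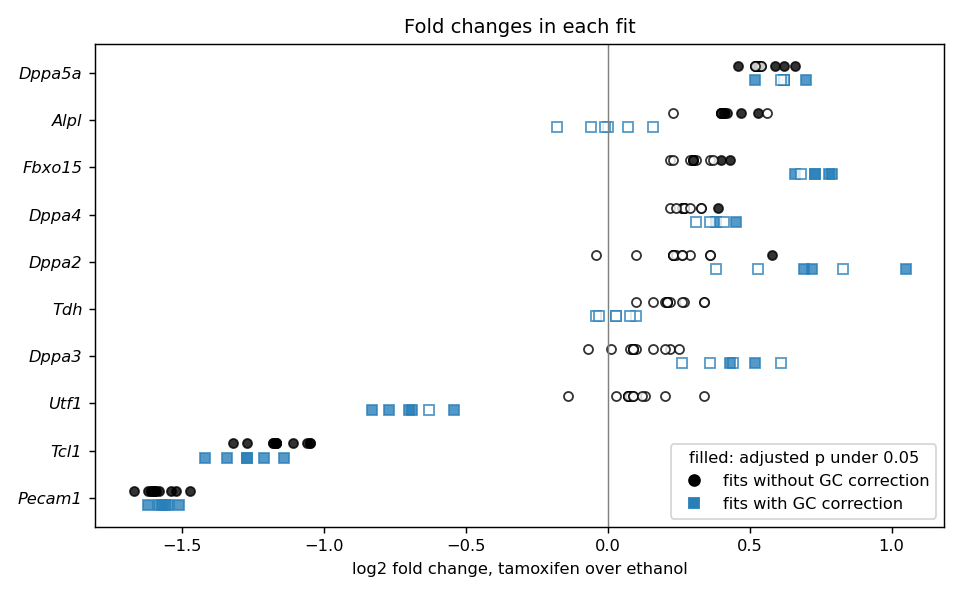
Log2 fold change of each marker gene, tamoxifen over ethanol, in every fit that was run, without GC correction (black circles) and with it (blue squares); filled symbols have an adjusted p under 0.05. Pecam1 (-1.67 to -1.47) and Tcl1 (-1.42 to -1.05) are filled in every fit, and Utf1 lies on opposite sides of 0 in fits without and with GC correction, apart from -0.14 without ethanol replicate 2.

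The decreases of Pecam1 and Tcl1 were set beside those of other stem cell genes that are not core factors. Of 28 such genes 27 passed the filter, 4 rose and 10 fell, with a median log2 fold change of -0.25. Over all genes tested 21.5% were called higher and 22.9% lower. With GC correction 2 of these genes rose and 10 fell, with a median of -0.26, against 10.1% higher and 9.98% lower over all genes. The receptor gene Kit had -1.36 ± 0.15, Fgf4, a growth factor gene and OCT4 target, -0.93 ± 0.15, and Fut9, whose enzyme makes the SSEA-1 sugar epitope, -1.20 ± 0.15 (SE; edgeR, adjusted p = 0.000108, 0.000615 and 0.000146). With GC correction Fut9 was not called (-0.15), and Kit (-1.21) and Fgf4 (-0.94) were. Mybl2, a cell cycle transcription factor gene, rose to 1054 CPM with tamoxifen, against 527.5 CPM with ethanol (edgeR, adjusted p = 0.000471), and by 0.61 on the log2 scale with GC correction. Of 15 core and naive factors 2 rose and 2 fell (3 and 2 with GC correction), with a median of -0.01. Among them were Nr0b1 at -2.22 ± 0.20 and Klf2 at 1.17 ± 0.16 (edgeR, adjusted p = 6.01e-05 and 0.000243). With GC correction Nr0b1 had -2.53, and Klf2 had 0.47 (edgeR, adjusted p = 0.0402), a call that ended without tamoxifen replicate 1 (0.52) or tamoxifen replicate 2 (0.42). Klf4 rose by 0.62 ± 0.14 (edgeR, adjusted p = 0.00457; 0.34, not called with GC correction), and Sox2 had -0.12 ± 0.15 (adjusted p = 0.553).

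The nearest 2 coding genes on either side of each member in the GENCODE order gave 36 genes that are not members, of which 25 passed the filter. Of these 4 rose and 4 fell, against 44.5% of all genes tested that were called. Beside the pair Dppa2 and Dppa4, Nectin3 (-0.84 ± 0.17) and Morc1 (-0.44 ± 0.16) were lower and Gm4737 (0.52 ± 0.16) was higher. Next to Tdh, Fam167a rose by 1.21 ± 0.23, and next to Fbxo15, Timm21 had -0.84 ± 0.16. Near Pecam1, Ern1 had 0.52 ± 0.17, opposite to Pecam1, and no neighbour of Tcl1 was called. The remaining calls were 6430531B16Rik near Utf1 (0.86 ± 0.26) and Usp48 near Alpl (-0.40 ± 0.15; SE; edgeR). With GC correction the calls of Nectin3 (-0.52), Fam167a (1.17) and Ern1 (0.53) held, and those of Morc1 (-0.11), Gm4737 (0.36), Timm21 (-0.26), 6430531B16Rik (0.64) and Usp48 (-0.31) ended. Nanog (0.68) and Kndc1 next to Utf1 (-0.63) were called in the GC-corrected fit and not in the uncorrected one, which made 3 neighbours higher and 2 lower.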

How the data were processed

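Poly(A) RNA-seq libraries were grouped by title and treatment label. The submitters' processing notes name CASAVA 1.8.2, Bowtie 1.1.1, HTSeq and DESeq2 with genome build mm9; the sources used here do not give what each did, the annotation or whether counting used strand, so reads of overlapping and antisense genes may be mixed. The authors deposited raw counts of reads per gene symbol. Reads assigned to no gene (37.6 and 35.0% in the tamoxifen libraries, 51.7 and 40.8% in the ethanol libraries) were left out.

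Tamoxifen was compared with ethanol over all genes with edgeR 4.0.16 in R 4.3.3 (TMM, filterByExpr, robust quasi-likelihood test, group as the only term, Benjamini-Hochberg adjustment, threshold 0.05). Each SE was the size of the log2 fold change divided by the root of its F statistic. GC correction entered each library's loess trend (span 0.5, degree 1) of log2 CPM on transcript GC content as an offset. Transcripts of GENCODE M21 (GRCm38) supplied GC content and length, with 99.4% of tested genes matched. The fit without GC correction was checked on simulated counts that held no GC trend, so the GC correction itself was not checked. Alternatives were other scalings and filters, DESeq2 1.42.0, limma voom (3.58.1), a replicate block, a threshold of 0.01 and leaving out each library; a lone library is then assumed to vary like the other group. Promoters came from RefSeq (GRCm38.p6), whose table held Alpl, Tcl1 and Utf1 among the members. Members, lists and the GC correction were chosen with earlier results of these data known. The genes named are all members, up to 4 per list in order of adjusted p, Pou5f1, Sox2, Nanog, Klf4 and the called neighbours; exceptions are marked.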

Additional observations from a re-analysis of the deposited data

How the results depend on the processing

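Pecam1 and Tcl1 kept their direction and call in all alternatives. All genes called numbered 6441, against 2908 with GC correction, 3806 at a threshold of 0.01, 3888 to 7326 when 1 library was left out, and 865 to 3585 when this was done with GC correction (865 and 1277 with 1 tamoxifen library, 3544 and 3585 with 1 ethanol library). Members called higher numbered 2, against 4 with total counts, 1 with no filter, DESeq2 or voom, 5 with GC correction and replicate block, 0 at a threshold of 0.01, 0 to 3 when 1 library was left out, and 0 to 4 when this was done with GC correction. Total counts raised the median of all genes to 0.12 and gave 4082 higher and 2520 lower calls, against 3119 and 3322.

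The following are log2 fold changes of marker genes that crossed the threshold or 0, and of other named genes that changed sign. With GC correction Dppa2 had 0.69, Fbxo15 0.73, Utf1 -0.70, Alpl 0.00 and Pou5f1 -0.31. With GC correction and replicate block these were 0.72, 0.73, -0.69, -0.01 and -0.29, with 0.43 for Dppa3 and 0.38 for Dppa4. With total counts Dppa4 had 0.39, Fbxo15 0.43 and Sox2 0.01. Alpl had 0.40 with no filter, DESeq2 and voom, and at a threshold of 0.01 neither Alpl (0.41) nor Dppa5a (0.53) was called. Leaving out 1 library gave -0.04 to 0.58 for Dppa2, -0.07 to 0.25 for Dppa3, 0.46 to 0.62 for Dppa5a, -0.14 to 0.34 for Utf1, 0.22 to 0.40 for Fbxo15 and 0.23 to 0.56 for Alpl. With GC correction, leaving out ethanol replicate 1 gave 1.05 for Dppa2, -0.54 for Utf1, 0.66 for Fbxo15, -0.06 for Alpl, -0.52 for Pou5f1 and 0.01 for Morc1. Leaving out ethanol replicate 2 gave 0.52 for Dppa3, 0.45 for Dppa4, -0.04 for Tdh, -0.83 for Utf1, 0.79 for Fbxo15, 0.07 for Alpl and -0.05 for Pou5f1. Leaving out tamoxifen replicate 1 gave 0.62 for Dppa5a, -0.77 for Utf1, 0.78 for Fbxo15, -0.18 for Alpl and -0.20 for Pou5f1. Leaving out tamoxifen replicate 2 gave 0.61 for Dppa5a, -0.03 for Tdh, -0.63 for Utf1, 0.16 for Alpl and -0.43 for Pou5f1. Of the other named genes, Nanog was called with total counts (0.49), with the replicate block (0.37) and without ethanol replicate 1 (0.51), and Morc1 lost its call with upper-quartile factors (-0.38), total counts (-0.31) and DESeq2 (-0.45). Mybl2, Klf2, Tet1, Akt1, Akt2, Cul7, Skp1a, Tek, Sp7 and Nectin3 kept their calls with GC correction but lost them when at least 1 of the libraries was also left out. The neighbours Gm4737, 6430531B16Rik, Ern1 and Usp48 also lost calls in fits without GC correction. The cause of these moves was not tested.

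Replicate numbers are shared by the groups only as numbers; deviations of same-numbered libraries correlated at 0.234 across genes. With the replicate block 3919 genes were higher and 4168 lower, and Fbxo15 (0.30) was the 1 member to gain a call. With the union of exons as length, levels per kilobase with tamoxifen and with ethanol were 83.6 and 69.3 for Dppa4, 38.6 and 33.4 for Tdh, 41.5 and 33.7 for Fbxo15, 4.07 and 9.25 for Tcl1, 4.96 and 15.0 for Pecam1, and 34.0 and 25.6 for Alpl. Depth limits Tcl1 most, at 96 to 412 reads.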

Other observations

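Other lists of cell states had the following values, beside 44.5% of all genes tested that were called in either direction (20.1% with GC correction). Of 11 germ cell markers 1 rose and 3 fell (2 and 4 with GC correction, where the median log2 fold change was 0.09, against -0.17 without), with summed levels of 252 and 248 CPM with tamoxifen and 275 and 285 CPM with ethanol. Of 16 primitive endoderm markers 6 rose and 1 fell (2 and 1 with GC correction), and of 13 markers of formative and primed cells 5 rose and 1 fell (4 and 2 with GC correction). Their summed levels were 4046 and 3903 CPM with tamoxifen against 3557 and 3301 CPM with ethanol for endoderm, and 723 and 709 CPM with tamoxifen against 733 and 850 CPM with ethanol for formative and primed cells. Dnmt3a, which fell, and Dnmt3b, which was not called, made up most of the formative and primed sum. That sum therefore says little about the other markers, of which those called without GC correction rose.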
